A study of Mus musculus with 6 samples.

Results

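The nuclear genes of oxidative phosphorylation were taken by symbol: every gene whose name starts with Ndufa, Ndufb, Ndufc, Ndufs or Ndufv (Ndufaf genes left out), Sdha to Sdhd, Uqcr, Cox4 to Cox8 or Atp5, without mitochondrially encoded genes and pseudogenes. The rule found 89 of the 27998 genes of the chow and of the DIO matrix and 89 of the 31053 of the OB matrix. By the prefix of the name alone, 38 were assigned to complex I, 4 to complex II, 8 to complex III, 18 to complex IV and 15 to the ATP synthase. The prefixes also took in 6 genes that are not subunits: the complex II assembly factors Sdhaf1 to Sdhaf4, and Atp5s and Atp5sl, which are counted with them here.

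The measurements came from mouse hypothalamus, the brain region that sets food intake and body weight. There were 3 groups of mice: chow-fed mice, mice made obese by a high-fat diet (DIO), and ob/ob mice on chow (OB), which lack functional leptin, the fat-derived hormone that limits feeding. In each group some mice received rapamycin, an inhibitor of the growth-regulating kinase complex mTORC1, and some received vehicle. Nuclei sorted for the neuronal marker NeuN were pooled per group into 1 droplet library (10x Genomics 3' v3), and antibody hashtags named the treatment of each nucleus. Strain, sex, age, dose, length of treatment and the number of mice behind a hashtag are not given in the sources used here. Each combination of group and treatment is therefore 1 sum of nuclei with no replicate, and differences between 2 such sums carry intervals for counting error only.

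Oxidative phosphorylation makes most of a neuron's ATP. Complex I takes electrons from NADH and complex II from succinate, both pass them through ubiquinone to complex III, and complex IV hands them to oxygen. The proton gradient built on the way drives the ATP synthase. Mitochondrial DNA encodes 13 of the subunits, and all others come from nuclear genes that must be made in step with them. Nuclear respiratory factor 1 (NRF-1), the ETS-family factor GABPA and YY1 are textbook activators of this gene set.

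Promoter letters bore on whether the genes share more than their function. The 250 bases before and the 50 bases after the RefSeq start (GRCm38.p6) were searched on both strands. The letters were CGCATGCG (NRF-1), CCGGAAG (GABPA) and AAGATGGC (YY1), none of which contains another, and 74 of the 89 genes had a promoter entry. The NRF-1 letters stood in 12.2% of these genes, against 2.07% of all 27025 genes in the promoter table and 2.77% of protein-coding ones. For GABPA the shares were 25.7%, 9.93% and 12.9%, and for YY1 14.9%, 3.19% and 3.57%. At least 1 of the 3 was present in 33 of 74 genes (44.6%), against 14.1% of all genes and 17.8% of protein-coding ones. GGGCGG, the core of an Sp1 site, was about as common as elsewhere (44.6% against 38.2% of all and 49.2% of protein-coding genes). The full CREB element, TGACGTCA, was in 4 of the 74 genes (5.41%), against 2.03% of all and 2.54% of protein-coding genes. A match describes the letters only. The following promoters are shown because Atp5j (coupling factor 6 of the ATP synthase) holds all 3 motifs, Cox6a1 (the common isoform of complex IV subunit 6a) holds NRF-1 and GABPA letters, Atp5g2 (an ATP synthase c-ring gene) holds NRF-1 letters, and Cox8a, among the genes furthest below chow in DIO neurons, holds none. Each shows only the 250 bases before the start, 5' to 3' in the direction of the gene, with the matched letters, on either strand, in capitals.
Atp5j, chr16:84834977-84835226, minus strand: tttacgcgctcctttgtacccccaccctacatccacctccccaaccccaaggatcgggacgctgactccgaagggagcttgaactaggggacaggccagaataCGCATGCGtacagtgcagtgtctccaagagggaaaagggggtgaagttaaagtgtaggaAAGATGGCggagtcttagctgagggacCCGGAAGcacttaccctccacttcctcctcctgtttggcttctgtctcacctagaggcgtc
Cox6a1, chr5:115348959-115349208, minus strand: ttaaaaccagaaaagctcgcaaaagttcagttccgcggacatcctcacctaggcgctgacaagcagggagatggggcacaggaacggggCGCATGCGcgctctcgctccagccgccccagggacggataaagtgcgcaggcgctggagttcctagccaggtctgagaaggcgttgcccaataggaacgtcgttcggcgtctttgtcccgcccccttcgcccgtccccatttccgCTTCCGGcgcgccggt
Atp5g2, chr15:102671048-102671297, minus strand: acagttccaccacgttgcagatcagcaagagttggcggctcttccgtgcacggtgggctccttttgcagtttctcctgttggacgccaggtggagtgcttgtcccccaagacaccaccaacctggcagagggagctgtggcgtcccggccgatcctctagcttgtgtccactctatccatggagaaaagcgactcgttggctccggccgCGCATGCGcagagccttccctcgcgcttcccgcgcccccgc
Cox8a, chr19:7217617-7217866, minus strand: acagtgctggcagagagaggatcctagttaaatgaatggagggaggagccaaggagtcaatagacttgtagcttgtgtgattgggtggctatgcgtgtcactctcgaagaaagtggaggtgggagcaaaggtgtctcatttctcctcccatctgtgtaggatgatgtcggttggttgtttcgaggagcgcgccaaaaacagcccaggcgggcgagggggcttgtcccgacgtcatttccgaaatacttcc

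All 3 libraries together held 34541 nuclei after filtering, in 47 clusters made without the nuclear oxidative phosphorylation, mitochondrial and ribosomal protein genes. Neurons made up 29937 nuclei in 36 clusters. These were classed by the balance of Slc17a6, the vesicular transporter of glutamate neurons, against Gad1, Gad2 and Slc32a1, the GABA neuron genes. The balance leaned to Slc17a6 in 18 clusters (14274 nuclei), to the GABA genes in 13 (12453) and clearly to neither side in 5 (3210). The largest of these 5, clusters 3 and 10, carried Slc17a6 together with Gad1 and Gad2. The 6 neuron sums held 5993221 (OB vehicle) to 34074433 (DIO rapamycin) molecules counted by unique molecular identifier (UMI). Median UMIs per neuron were 5384 to 6135 in chow and DIO but 3219 and 3719 in OB. The 58 marker genes of other cell types summed to 354.4 to 508.8 CPM (the UMIs of a gene scaled to a common library total) in the neuron sums, with 1 to 5 of them at 0. Each pair of libraries shared 31 to 38 barcodes.

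The nuclear genes of oxidative phosphorylation together took 2900 CPM of neuronal RNA in chow vehicle (95% interval 2882 to 2919) and 2827 in chow rapamycin (2808 to 2846). In DIO the sums were 2329 (2312 to 2347) under vehicle and 2601 (2584 to 2618) under rapamycin. In OB they were 2852 (2809 to 2895) and 3019 (2992 to 3045). DIO vehicle was the lowest of the 6 sums, and the rapamycin sum was below vehicle in chow and above it in DIO and OB. The OB sums count Atp5o at 2 identifiers and leave out Atp5sl, which that matrix lists as Dmac2. Without Atp5o, over the 88 genes that share an identifier in all matrices, vehicle and rapamycin gave 2671 and 2590 CPM in chow, while DIO gave 2023 and 2262 and OB 2534 and 2701. Of the 89 entries, 87 or 88 had at least 1 UMI in each neuron sum.

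Single genes of each complex showed how far this was shared. Cox8a, the ubiquitous isoform of the smallest complex IV subunit, stood at 59.05 CPM in chow vehicle and 55.31 in chow rapamycin, at 29.6 and 36.24 in DIO, and at 52.73 and 61.07 in OB. Both DIO sums were below all 4 others. Ndufa13, an accessory subunit of complex I, read 16.44 CPM in chow vehicle and 15.59 in chow rapamycin, while DIO gave 7.96 and 9.63 and OB gave 18.85 and 21.9, again with both DIO sums lowest. Atp5b, the catalytic beta subunit of the ATP synthase, gave 52.33 and 49.85 CPM in the chow pair, 31.13 and 36.92 in the DIO pair and 49.22 and 53.44 in the OB pair (vehicle first). Ndufs1, the large iron-sulfur subunit of complex I, lay closer together: its lowest value was 73.23 CPM (DIO vehicle), its highest 87.85 (OB rapamycin), and the chow pair read 81.52 and 78.6. Uqcrc2, a core subunit of complex III, ran from 46.39 CPM in OB vehicle to 52.23 in chow vehicle. Sdha, the catalytic flavoprotein of complex II, was highest in the chow sums (115.4 and 116 CPM) and between 88.98 and 97.24 CPM in the other 4.

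**Figure D1:**
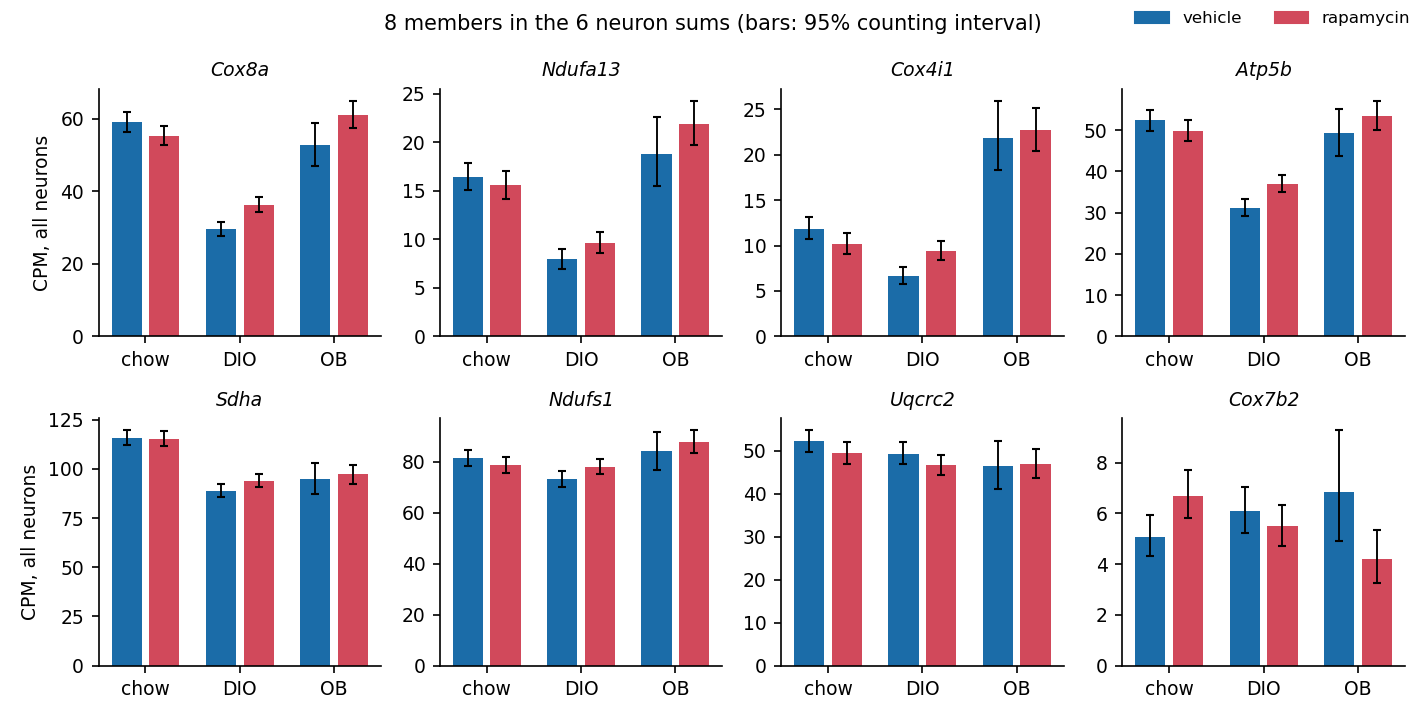
CPM (vertical axis) of 8 genes in the 6 neuron sums, vehicle in blue and rapamycin in red, with 95% counting intervals; each panel has its own scale from 0. Cox8a, Ndufa13 and Atp5b were lowest in the DIO pair of sums, and Uqcrc2 and Ndufs1 varied least.

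The first question was what rapamycin did within each group. In DIO neurons the nuclear oxidative phosphorylation genes were mostly higher under rapamycin than under vehicle. The median log2 ratio of CPM was 0.18 over the 82 genes that reached 50 UMIs, counting both sums, against 0.04 over all 15743 genes with that many, and 78 of 82 were above 0 against 59.5% of all genes. At least 1.1-fold higher were 54 of the 82, where 30.4% of all genes were, and at least 1.1-fold lower was 1, where 13.7% of all genes were. The 7 genes under the minimum were Cox4i2, Cox6a2, Cox6b2, Cox7a1, Cox8b, Cox8c and Ndufa4l2, tissue isoforms described further on. There is no replicate here, so no test was made.

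The complexes differed in their medians, and that of complex II was near the 0.04 of all genes. In DIO, 15 of 15 ATP synthase genes (median 0.17), 37 of 37 measured complex I genes (0.20), 4 of 4 complex II genes (0.05), 7 of 8 complex III genes (0.11) and 11 of 12 measured complex IV genes (0.22) were above 0. The highest ratios belonged to Cox4i1, the ubiquitous subunit 4 of complex IV (6.64 CPM under vehicle, 9.42 under rapamycin, log2 ratio 0.51, 95% interval 0.24 to 0.77), and to Ndufb7, an accessory complex I subunit (5.48 and 7.78 CPM, 0.51, 0.22 to 0.80). Ndufa1, another accessory subunit of complex I, followed with 4.05 and 5.66 CPM (0.48, 0.15 to 0.83). Sdhd, a membrane anchor of complex II, had 6.6 and 8.95 CPM (0.44, 0.18 to 0.71), so that 1 gene of complex II moved far more than its partners Sdha, Sdhb and Sdhc. Sdhaf1, which helps insert iron-sulfur clusters into Sdhb, had a like ratio on few counts (56 and 88 UMIs, 0.44, -0.06 to 0.95). At the other end were Cox7b2 (-0.15), Sdhaf4 (-0.13), Sdhaf3 (-0.12), Uqcrc2 (-0.08) and Ndufa9 (0.01), and the interval of each of these 5 included 0.

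In chow neurons the ratios ran slightly the other way. The median was -0.05 over 84 measured genes against -0.03 over all 15503, and 20 of 84 were above 0 against 39.7% of all genes. At least 1.1-fold higher were 3 (9.71% of all genes) and at least 1.1-fold lower were 8 (18.4% of all genes). Both counts are smaller shares of the 84 genes than the background. The lowest were Sdhaf1 (-0.27), Cox4i1 (11.87 CPM under vehicle, 10.16 under rapamycin, -0.22, -0.45 to -0.002), Ndufa2 (-0.22), Ndufs6 (-0.20) and Ndufa5 (-0.17). The highest were Cox6b2, on 54 UMIs in all (0.51, -0.32 to 1.35), Cox7b2 (5.08 and 6.70 CPM, 0.40, 0.09 to 0.71), Ndufa3 (0.17), Sdhaf4 (0.13) and Ndufb6 (0.12). Cox7b2 and Sdhaf4 were thus among the highest in chow and among the lowest in DIO.

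In OB neurons the median was 0.08 over 82 measured entries, with Atp5o present at 2 identifiers and Atp5sl left out, against 0.04 over all 14034, with 64 of 82 above 0 against 58.3% of all genes. At least 1.1-fold higher were 29 (28.6% of all genes) and at least 1.1-fold lower were 4 (18.8% of all genes). Complex IV had the highest median (0.16, 11 of 12 above 0), followed by complex III (0.13, 7 of 8), ATP synthase (0.09, 12 of 16 entries) and complex I (0.06, 26 of 37). Uqcr11, a small complex III subunit, had the highest ratio on few counts (30 UMIs under vehicle, 143 under rapamycin, 0.80, 0.23 to 1.42), and Sdhaf1 (0.63), Sdhaf4 (0.43), Ndufb11 (0.43) and Ndufs5 (0.42) followed. Cox7b2 was lowest (6.84 and 4.21 CPM, -0.70, -1.28 to -0.11), and Ndufv3 (-0.18), Ndufs7 (-0.16) and Atp5j2 (-0.12) were also among the lowest. The OB values leaned on how nuclei were assigned: the hashtag model named 2351 vehicle nuclei and left 3721 of 12283 without a call. The other choice took the stronger tag, at least 2-fold above the other after each was centred on its pool mean. By the stronger tag 5512 were vehicle nuclei, 1404 had no call and the median was 0.16.

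The other genes of the organelle did not all go the same way. Of 10 measured mitochondrially encoded genes, which specify the core subunits of complexes I, III and IV and of the ATP synthase, 9 were at least 1.1-fold lower under rapamycin in DIO (median -0.31), opposite in sign to the nuclear genes. Mitochondrially encoded RNA summed to 73.16 CPM in DIO vehicle and 59.6 in DIO rapamycin, to 67.57 and 65.11 in chow, and to 192.1 and 164.7 in OB. In non-neuronal nuclei of the same libraries it was 2775 and 1318 CPM in DIO, 237.7 and 186.7 in chow and 831.4 and 495.2 in OB (vehicle first). This RNA is not made in the nucleus, and the libraries hold sorted nuclei. How much of it was carried over with them was not tested. The 36 listed assembly factors, which build the complexes but are not part of them, had a DIO median of 0.13, with 17 at least 1.1-fold higher and 2 lower. The 16 genes of the citric acid cycle had 0.05, with 2 higher and 0 lower, and the 15 listed regulators, such as Ppargc1a, Esrra and Nrf1, had -0.003, with 0 higher and 2 lower. Mitochondrial ribosomal protein genes (median 0.19, 51 of 77 higher) and cytosolic ribosomal protein genes (0.20, 53 of 69 higher) gave medians close to that of the oxidative phosphorylation genes. For each of these counts the shares over all genes were the 30.4% and 13.7% given above. Immediate-early genes, which respond to neuronal activity, summed to 60.91 CPM in DIO vehicle and 39.94 in DIO rapamycin. The other pairs lay closer together, at 75.77 and 77.14 CPM in chow and 61.24 and 56.92 in OB (vehicle first).

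**Figure D2:**
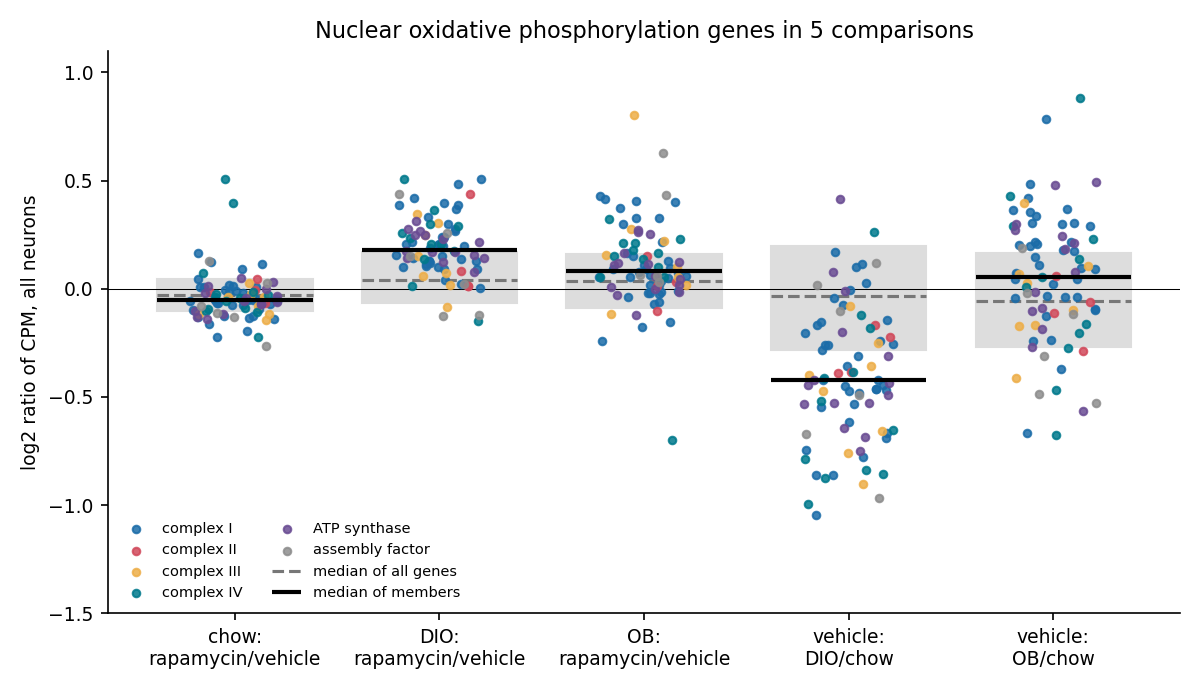
Log2 ratio of CPM (vertical axis) of each measured gene in 5 comparisons of neuron sums, coloured by complex; the solid bar is the median of these genes, the dashed bar and grey box the median and quartiles of all genes. The medians were -0.05, 0.18, 0.08, -0.42 and 0.06 from left to right; Atp5o in the last comparison lies below the axis at -3.50.

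In both main classes of neurons the chow median was below 0 and the DIO and OB medians were above it. The medians over all genes had the same signs. Among Slc17a6 neurons the median ratio of rapamycin to vehicle was -0.04 for chow, 0.18 for DIO and 0.07 for OB. All genes there gave -0.03, 0.04 and 0.03. Among GABA neurons the medians of these genes were -0.08, 0.17 and 0.12, against -0.02, 0.03 and 0.04 over all genes. With hashtags by the stronger tag the DIO and OB values of these genes were 0.173 and 0.182. Against genes of the same span the chow median of Slc17a6 neurons was 0.012. Summed over the genes, Slc17a6 neurons of DIO stood at 2271 CPM under vehicle and 2493 under rapamycin, and GABA neurons at 2420 and 2704. In non-neuronal nuclei 22 to 75 of the genes could be measured. Their medians were -0.18 for chow, -0.02 for DIO and 0.01 for OB, against -0.04, -0.02 and -0.03 over all genes. The sign of their medians in DIO and OB changed with the scaling or the choice of nuclei.

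Cluster by cluster, the summed level was higher under rapamycin in 33 of the 35 DIO neuron clusters with at least 50000 UMIs in both sums, in 22 of 28 OB clusters and in 7 of 35 chow clusters. The DIO log2 ratios ran from -0.01 to 0.34 with a median of 0.16. Agrp-like neurons, the hunger-promoting cells of the arcuate nucleus, had 2384 CPM under vehicle and 2557 under rapamycin in DIO, while the chow pair read 2752 and 2717 and the OB pair 2973 and 3052. Pomc-like neurons, their satiety-promoting counterparts, had 2275 and 2567 CPM in DIO and 2719 and 2501 in chow. Clusters of 1 pool share its library and are not replicates of each other.

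A fit over all 6 neuron sums, with the pool as a block, asked which part of the rapamycin difference the pools shared. It tested 85 of these genes among 17827, and its p-values measure only the spread between these sums. By edgeR's quasi-likelihood test with Benjamini-Hochberg adjustment 0 of the 85 were called, where 0.0898% of all genes were called higher and 0.286% lower. At an unadjusted p of at most 0.05 there were 5 of the 85 (Cox7a2, Cox7c, Ndufa6, Ndufab1 and Ndufc2), a share like that of all genes (994 of 17827). DESeq2 called 0, with 1 unadjusted (175 of all genes). The fitted change was above 0 for 75 of 85, with a median of 0.08 against 0.01 over all genes. Its medians by gene span are given further on. Without the DIO pool the median was 0.02 (51 of 84 above 0) and without the chow pool 0.14 (74 of 84). Within Slc17a6 neurons 0 of 84 were called (all genes: 0.00608% higher, 0.0426% lower), with 6 unadjusted (824 of all 16447 genes). Within GABA neurons 0 of 83 were called (all genes: 0.0381% higher, 0.140% lower), with 3 unadjusted (758 of all 15757 genes). DESeq2 called 0 in both, with 0 unadjusted.

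Ndufa6, an accessory subunit of complex I, had the smallest p. It had 54.85 CPM under vehicle and 52.38 under rapamycin in chow, while the DIO pair read 34.54 and 46.1 and the OB pair 42.38 and 53.2. Its rapamycin sum was the higher in DIO and OB and the lower in chow. The fitted log2 change was 0.20 (SE 0.06, edgeR adjusted p = 0.2232). It was not called without the DIO or without the OB pool. Without the chow pool, the one in which it was lower under rapamycin, its change was 0.35 in all neurons (edgeR adjusted p = 0.003884). By class the change was 0.35 in Slc17a6 neurons (edgeR adjusted p = 0.04998) and 0.38 in GABA neurons (edgeR adjusted p = 0.03984). These fits rest on the DIO and OB sums alone, and both classes are parts of the same nuclei. In all neurons 67 of 17060 genes were then called higher and 143 lower, against 16 and 51 of 17827 with all pools.

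The second question was how the groups differed without rapamycin. In DIO vehicle neurons these genes were lower than in chow vehicle neurons: the median log2 ratio was -0.42 over 82 measured genes against -0.04 over all 15459, and 9 of 82 were above 0 against 45.8% of all genes. At least 1.1-fold lower were 66 (38.5% of all genes) and at least 1.1-fold higher were 3 (30.2% of all genes). This comparison shares the DIO vehicle sum with the DIO rapamycin ratio, so a low DIO vehicle sum enters both with opposite signs. Between the rapamycin sums, which are other nuclei of the same 2 libraries, the DIO to chow median was -0.17 against 0.015 over all genes. Above 0 were 21 of 82, against 52.25% of all genes. Each group is 1 library, so group and library cannot be told apart.

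Complex IV was furthest down, with a median of -0.59 and 11 of 12 genes below 0. Complex I had -0.42 (33 of 37 below 0), complex III -0.44 (8 of 8), ATP synthase -0.45 (13 of 15) and complex II -0.30 (4 of 4). The lowest ratios were those of Ndufa13 (521 UMIs in chow and 234 in DIO, -1.05, -1.28 to -0.82) and Cox8a (-0.996, -1.11 to -0.88). Sdhaf1 (-0.97), the ubiquinone-binding complex III subunit Uqcrq (34.84 and 18.61 CPM, -0.90) and the ubiquitous complex IV subunit Cox7a2 (37.18 and 20.25 CPM, -0.88) came next. A few genes stood above chow: Atp5o, the stalk subunit that holds the catalytic head of the ATP synthase in place, had 229.6 CPM in chow and 306.3 in DIO (0.42, 0.37 to 0.46), and Ndufv1, the subunit of complex I that takes electrons from NADH, had 21.78 and 24.5 (0.17, 0.02 to 0.32). Cox7b2 (0.26), Sdhaf3 (0.12) and Ndufa12 (0.12) had intervals that included 0. The summed level was lower in DIO in 35 of 35 neuron clusters measured in both vehicle sums, with log2 ratios from -0.40 to -0.08.

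In OB against chow the vehicle sums gave values on both sides of 0. The median was 0.06 over 82 measured genes against -0.06 over all 14536, with 47 of 82 above 0 against 42.6% of all genes. At least 1.1-fold higher were 33 (27.3% of all genes) and at least 1.1-fold lower were 20 (39.6% of all genes). Cox4i1 was highest (11.87 CPM in chow, 21.86 in OB, 0.88, 0.58 to 1.17), followed by Ndufb7 (0.78), Atp5e (0.49), Ndufs7 (0.48) and Atp5l (0.48). Cox6a1 (-0.68), Ndufb9 (-0.67), Atp5a1 (-0.57) and Atp5sl (-0.53) were among the lowest. The median turned to -0.04 with hashtags by the stronger tag, to -0.02 in nuclei of 3000 to 8000 UMIs and to -0.04 in nuclei with no mitochondrial UMI. The comparison shares the chow vehicle sum with the DIO to chow comparison. Between the rapamycin sums the OB to chow median was 0.20 against -0.002 over all genes, with 60 of 82 above 0 against 49.7% of all genes. Both comparisons cross software versions (7.0.1 in the OB header, 6.0.0 in the others) and gene models.

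Atp5o shows what a change of gene model does. Its ratio of OB to chow at the shared identifier was -3.50, with 20.36 CPM in OB vehicle. The OB matrix lists Atp5o at a further identifier, ENSMUSG00000116933, which held 325.7 CPM in OB vehicle and 325.3 in OB rapamycin, 7284 of its neuronal UMIs against 496 at the shared one. The low value at ENSMUSG00000022956 therefore goes with the split of the symbol, and the OB and chow levels of Atp5o are not comparable. The summed ratio of OB to chow over shared identifiers (-0.18) carries this gene as well.

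The genes are short ones, and in the DIO neuron comparisons shorter genes had ratios further from 0. To a lesser degree this was also seen under rapamycin in chow and OB neurons. The span from the first to the last RefSeq base, introns included, had a median of 7.5 kb over the 89 genes, from 0.93 kb (Cox6a2) to 105.4 kb (Cox7b2), against 17.1 kb over RefSeq protein-coding genes. Complexes III and IV had the shortest medians, 4.89 and 4.65 kb, and complex II the longest, 19.71 kb. In DIO against chow vehicle neurons the 23 measured genes under 5 kb had a median of -0.53, the 32 of 5 to 10 kb -0.48, the 14 of 10 to 20 kb -0.28 and the 13 of 20 kb or more -0.08. All genes of the same spans went from -0.50 through -0.26 and -0.15 to 0.06. In DIO rapamycin against vehicle neurons the same classes had 0.28, 0.20, 0.18 and 0.02, and all genes 0.21, 0.14, 0.09 and -0.01. OB rapamycin against vehicle had 0.16, 0.09, 0.06 and 0.04. No such order was seen in OB against chow (0.11, 0.06, 0.10 and 0.02), nor in non-neuronal DIO nuclei under rapamycin, where 22 genes could be measured (-0.08, -0.001, -0.06 and 0.14).

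Ndufs4 and Cox7c are examples of a long and a short gene. Ndufs4, an accessory complex I subunit with a span of 100.3 kb, had 126.1 CPM in DIO vehicle and 128.1 in DIO rapamycin. Cox7c, a complex IV subunit with a span of 2 kb, had 106.6 and 131.1. Measured against the median of genes of the same span class, an adjustment chosen after seeing the data, the median of the genes was 0.06 in DIO rapamycin (60 of 82 above 0), 0.03 in OB rapamycin and 0.002 in chow rapamycin. It was -0.17 in DIO against chow (25 of 82 above 0) and 0.17 in OB against chow (61 of 82). What links span to these ratios was not tested. Median UMIs per neuron were 6135 in DIO vehicle and 5384 in DIO rapamycin, and in neurons of 3000 to 8000 UMIs the rapamycin median was still 0.18 and that of DIO against chow -0.41. Of DIO neurons, 35.7% under vehicle and 28.1% under rapamycin had a mitochondrial UMI, and in neurons without one the 2 medians were 0.20 and -0.45.

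**Figure D3:**
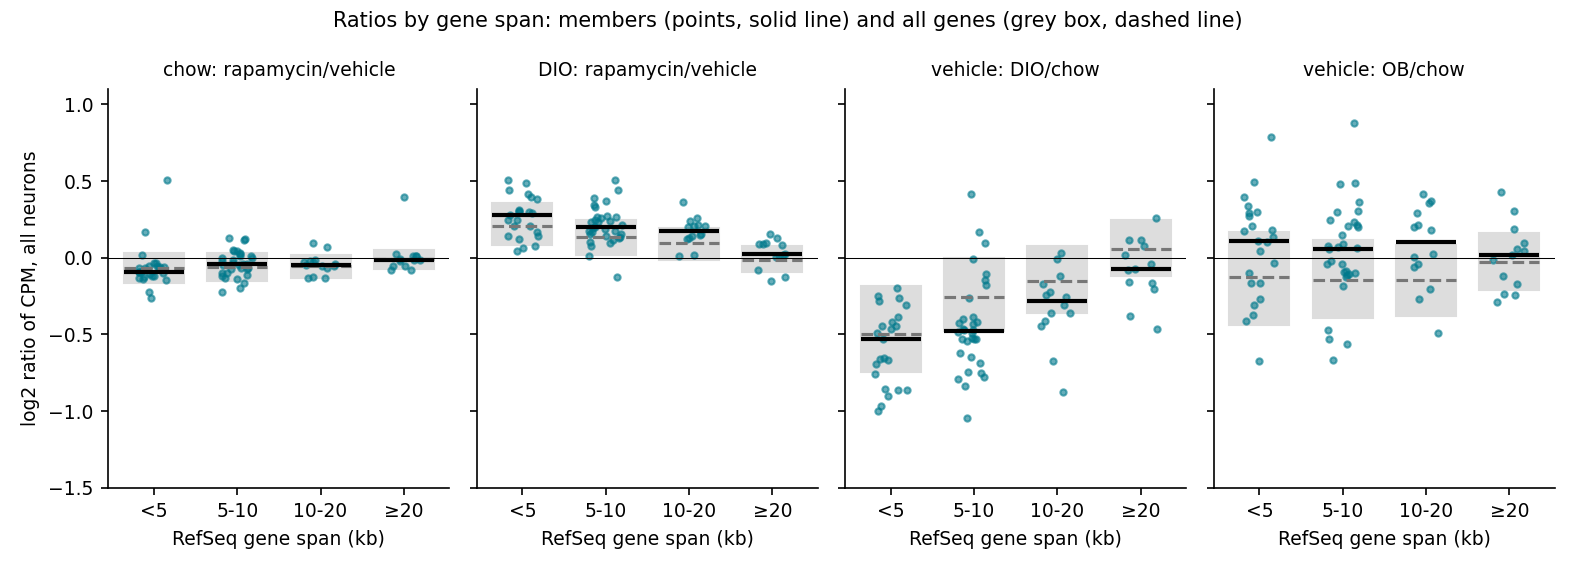
Log2 ratio of CPM (vertical axis) by RefSeq gene span (horizontal axis, kb) in 4 comparisons of neuron sums; points and solid bars are the oxidative phosphorylation genes and their medians, grey boxes and dashed bars the quartiles and median of all genes. In DIO against chow the median of the genes went from -0.53 under 5 kb to -0.08 at 20 kb or more; Atp5o lies below the axis in the OB panel at -3.50.

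Promoter letters did not go with the size of the change. In DIO against chow the 33 genes with an NRF-1, GABPA or YY1 match had a median of -0.40 and the 38 without one -0.45. For rapamycin in DIO the medians were 0.19 and 0.21.

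Glutamate and GABA neurons could be compared over 6 pairs of sums from the same mice and libraries. By edgeR's quasi-likelihood test with pool and hashtag as a block, 11 of 84 genes differed: 1 was higher in Slc17a6 neurons, where 14.0% of all 16515 genes were, and 10 were lower, where 14.1% of all genes were. With TMM scaling both are smaller shares of the 84 genes than the background, but with library totals alone 30 were lower (35.7%), where 23.9% of all genes were. The median log2 difference was -0.06 against -0.02 over all genes, and the fitted value was below 0 for most of them, with 15 of 84 above 0.

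Among the called genes of complex II, Sdha (lowest 86.75, median 93.6 and highest 110.7 CPM in Slc17a6 neurons, and 92.61, 100.6 and 121.7 in GABA neurons) was lower in Slc17a6 neurons in 5 of 6 pairs (log2 difference -0.09, SE 0.03, edgeR adjusted p = 0.02221). Sdhb, the iron-sulfur subunit, fell by 0.12 (SE 0.05, edgeR adjusted p = 0.04946), and Sdhc, a membrane anchor, by 0.17 (SE 0.05, edgeR adjusted p = 0.01812). Sdhaf2, which attaches the flavin to Sdha, was lower too (-0.16, edgeR adjusted p = 0.04056). None of these 4 was called by DESeq2 or without the chow pool. Sdhaf3, an assembly factor for the iron-sulfur subunit, was the gene that was higher: its level was 29.35, 35.05 and 37.12 CPM (lowest, median, highest) in Slc17a6 neurons and 27.31, 30.64 and 32.01 in GABA neurons, higher in 5 of 6 pairs (0.24, SE 0.05, edgeR adjusted p = 0.0003268).

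In the other complexes the called genes were lower in Slc17a6 neurons. Atp5g2, 1 of 3 genes for the c-ring of the ATP synthase, had a median of 31.31 CPM there and 37.87 in GABA neurons and was lower in 6 of 6 pairs (-0.24, SE 0.05, edgeR adjusted p = 0.0002017). Ndufb4 had 17.93 and 21.84 CPM (-0.26, SE 0.06, edgeR adjusted p = 0.001314), and Ndufs4 had 122.2 and 140.7 (-0.14, SE 0.03, edgeR adjusted p = 0.0002473), each lower in 6 of 6 pairs. Ndufs1 (-0.10), Atp5o (-0.10) and Cox7a2 (-0.16) completed the list, with edgeR adjusted p = 0.02672, 0.004977 and 0.013. The OB pairs of Atp5o rest on its shared identifier alone, which holds few of its OB UMIs (lowest 18.96 CPM in Slc17a6 and 22.51 in GABA neurons). Atp5g2, Ndufb4, Ndufs4 and Sdhaf3 were also called by DESeq2, in a fit on nuclei called for both classes directly and without the chow or the OB pool; Ndufb4 was not called without the DIO pool. Scaling by library totals alone moved the median of all genes to -0.06.

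**Figure D4:**
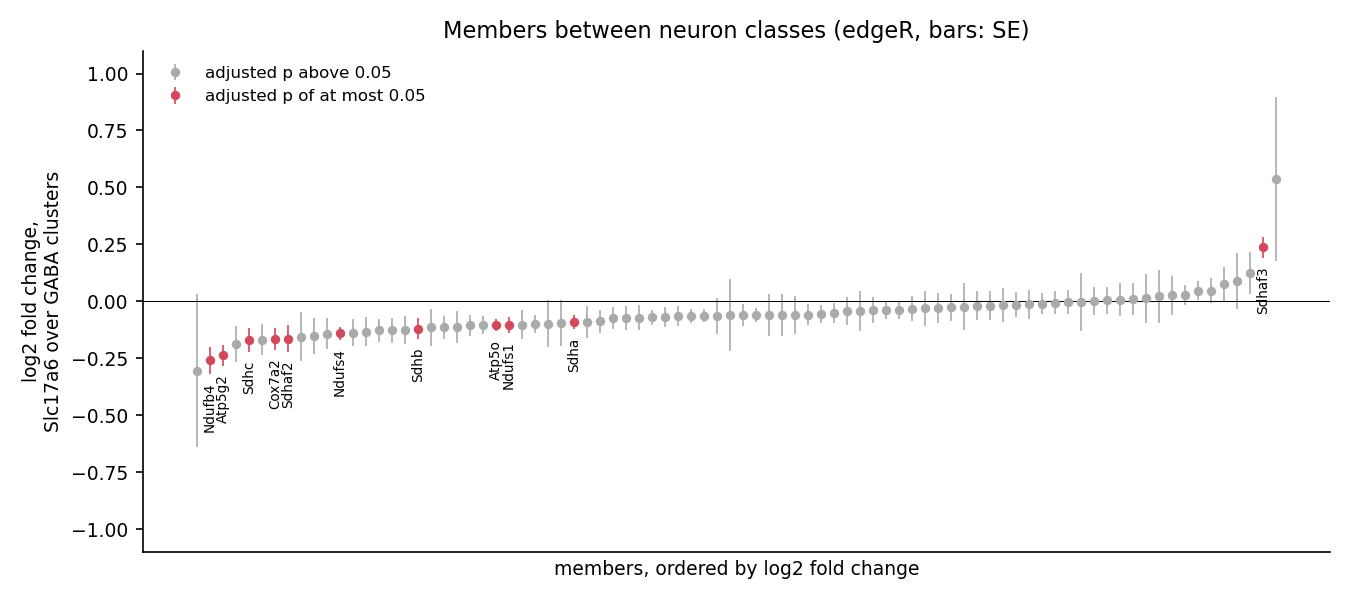
Log2 difference of Slc17a6 against GABA neurons (vertical axis, edgeR, bars are SE) for the 84 tested genes in order of that difference (horizontal axis); red points had an adjusted p of at most 0.05. Of the 11 red points 10 lay below 0, from Ndufb4 at -0.26 to Sdha at -0.09, and Sdhaf3 lay at 0.24.

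Within the classes the summed level of the genes varied by cluster. Set against all neurons of the same sum, cluster 41, an unnamed Slc17a6 cluster led by E2f7, Prkch, Htr1f and Svep1, had the highest median log2 level, 0.33, and was above in 5 of 5 sums (2931 to 4100 CPM). GABA clusters 0 and 4 followed at 0.15 and 0.13, above in 6 of 6 sums each, and their ranges overlapped with each other but not with that of cluster 41. At the low end were MCH-like neurons, which make melanin-concentrating hormone, at -0.36 (1804 to 2283 CPM, 4 sums), SCN-like neurons of the circadian clock at -0.20 (5 sums) and cluster 1, which carried the ventromedial marker Nr5a1, at -0.20 (6 sums). The range of MCH-like neurons (-0.41 to -0.19) overlapped with those of the other low clusters. Agrp-like neurons sat at 0.00 and Pomc-like neurons at -0.09. Orexin-like neurons, which sustain wakefulness, were at -0.14 and histaminergic-like neurons at -0.09.

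**Figure D5:**
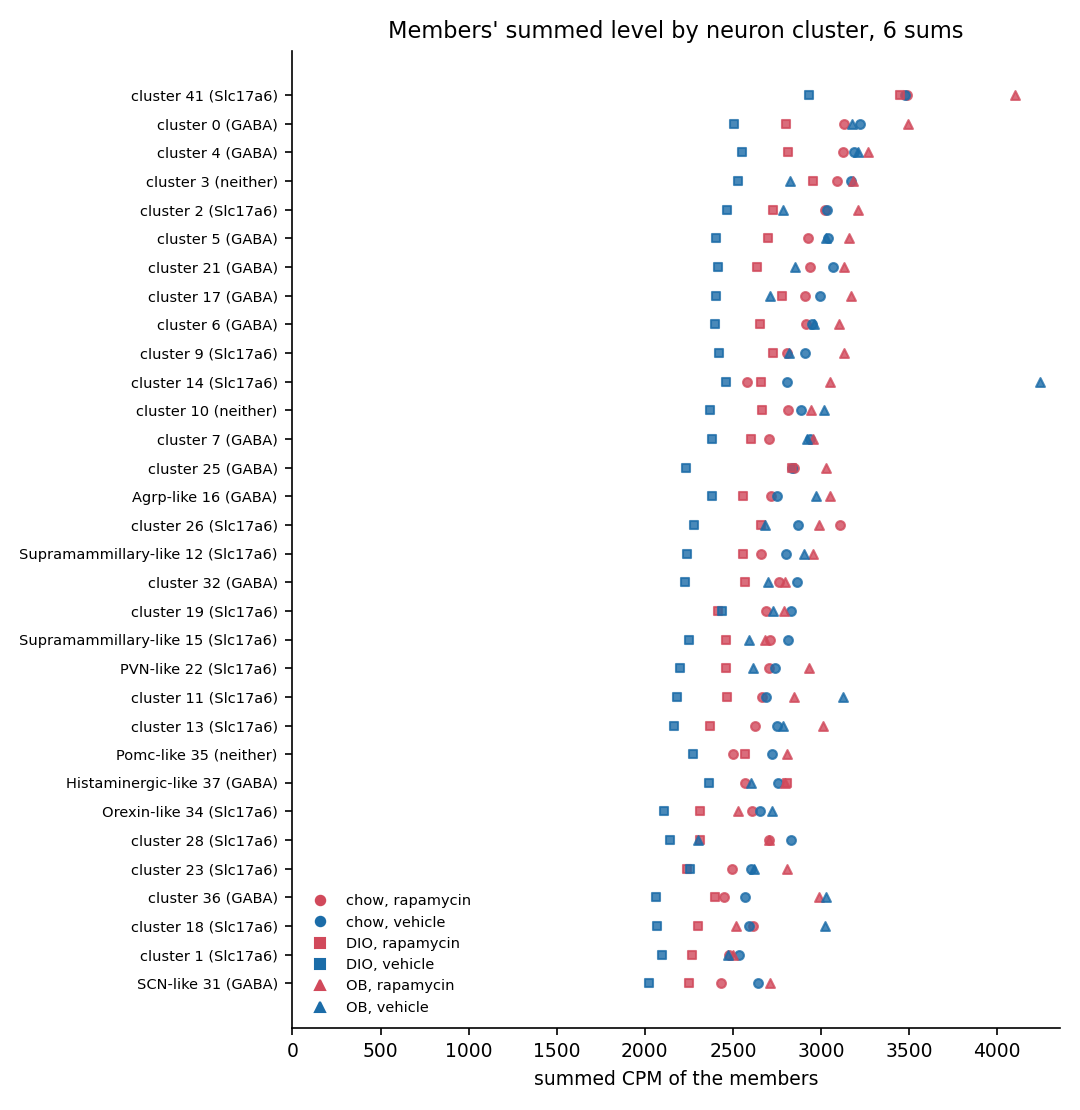
Summed CPM of the genes (horizontal axis) in each neuron cluster (rows, ordered by median relative level) with at least 5 of the 6 sums of 50000 UMIs or more; symbols are pools, red is rapamycin and blue is vehicle. Cluster 41 lay highest, a DIO sum was the leftmost point in every row, and the OB vehicle sum of cluster 14 stood apart at 4244.

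Outside neurons the summed level was highest in fibroblast-like nuclei (4251 and 4326 CPM, with enough UMIs only in OB) and lowest in oligodendrocyte-like nuclei (1835 to 2545 CPM, below all neurons in 5 of 5 sums). Astrocyte-like cluster 8 lay between 3172 and 4129 CPM. These nuclei held fewer UMIs than neurons, and their part in the levels was not tested.

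Tissue isoforms among these genes were rare in neurons. Cox4i2, known from lung and from oxygen-sensing cells, had 31 UMIs over all neurons, the muscle isoforms Cox6a2 and Cox7a1 had 91 and 45, the muscle isoform Cox8b had 5, the testis isoform Cox8c had 3 and Ndufa4l2, a hypoxia-induced relative of Ndufa4, had 17. Their common partners were at 11.52 CPM (Cox4i1, 1700 UMIs) to 86.24 CPM (Cox7b, 12725 UMIs). The exception was Cox7b2, described as a testis isoform of subunit 7b, with 838 UMIs in neurons (5.68 CPM, 5.30 to 6.08). Over both treatments its level was 5.87 CPM for chow, 5.77 for DIO and 4.91 for OB neurons.

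Of the rare isoforms, a pair stood out in other cells. Cox6b2, a testis isoform of subunit 6b, had 22 UMIs in fibroblast-like nuclei (77.53 CPM, 48.59 to 117.4) against 0.75 CPM in neurons and 9.76 in astrocyte-like nuclei. By pool these were 5 UMIs in chow, 0 in DIO, where 23662 UMIs in all allow a level of up to 126.8 CPM, and 17 in OB. Ndufa4l2 had 6 of its UMIs in an endothelial-like cluster (91.75 CPM, 33.67 to 199.7), which also carried the pericyte genes Pdgfrb and Vtn among its leading genes, spread as 2, 1 and 3 over chow, DIO and OB. Cox7b2 within neurons was highest in the small Slc17a6 cluster 43 (16 UMIs, 26.56 CPM, 15.18 to 43.14), followed by histaminergic-like neurons (10.22 CPM, 6.33 to 15.62).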

How the data were processed

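The authors deposited UMI counts per gene and barcode for the RNA libraries and antibody tag counts for the hashtags, made with Cell Ranger 6.0.0 on mm10 per the submitters' processing notes; the OB file header names 7.0.1. Whether intronic reads were counted, and how reads matching pseudogenes were treated, is not given in the sources used here. Nuclei with at least 500 UMIs, 300 genes and at most 5% mitochondrial UMIs were kept. Treatments were called with HTODemux (Seurat 5.3.0, R 4.3.3, quantile 0.99), which removes doublets of the 2 tags; no doublets within a tag were sought. Nuclei were clustered with scanpy 1.11.5 (3000 variable genes, 40 components, resolution 1, 183 genes of oxidative phosphorylation and ribosomal proteins left out) and named from at least 3 fixed markers. Counts were summed per pool, hashtag and class. Ratios of CPM used genes that reached 50 UMIs, counting both sums, with exact 95% conditional binomial intervals, which cover counting error only. Fits used edgeR 4.0.16 (TMM, filterByExpr, quasi-likelihood, adjusted p of at most 0.05) with DESeq2 1.42.0 as an alternative, checked on simulated data. Spans and promoters are from RefSeq (GRCm38.p6); spans matched 83.6% of genes and all 89 of this set. Named in each ratio comparison were the 5 highest and 5 lowest genes, 1 gene per complex, the tissue isoforms and genes past the test. A gene that this rule names is not reported here. The genes and lists were chosen with earlier results of these data known.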

Additional observations from a re-analysis of the deposited data

Results flagged for a closer look

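The median log2 ratio of rapamycin to vehicle over the nuclear oxidative phosphorylation genes had opposite signs in chow (-0.05) and DIO neurons (0.18), a gap of 0.23. Chow and OB neurons (0.08) also differed in sign, by 0.14. Each group is 1 pair of sums, so neither difference was tested. The medians over all genes had opposite signs as well (-0.03 in chow, 0.04 in DIO and 0.04 in OB). Against genes of the same span the medians were 0.002 in chow (45 of 84 above 0), 0.063 in DIO (60 of 82) and 0.033 in OB (52 of 82), all above 0.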

How the results depend on the processing

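The DIO rapamycin median in neurons (0.18) stayed between 0.15 and 0.20 and the DIO to chow median (-0.42) between -0.45 and -0.40 under other scalings, minimum counts, hashtag calls, cluster weights, depth windows, thinning, without mitochondrial UMIs and without assembly factors. Centring on genes of the same span, added after seeing the data, gave 0.063 and -0.167, 0.05 in Slc17a6 and 0.046 in GABA neurons of DIO, 0.002, 0.012 and -0.02 in all, Slc17a6 and GABA neurons of chow, 0.033 in all and 0.032 in GABA neurons of OB, and 0.166 for OB against chow. TMM factors moved the chow median to -0.03. In OB, hashtags by the stronger tag gave rapamycin medians of 0.161, 0.144 and 0.182 in all, Slc17a6 and GABA neurons, and nuclei with no mitochondrial UMI gave 0.169 and 0.147 in all and Slc17a6 neurons; OB against chow turned to -0.043, -0.044 and, in nuclei of 3000 to 8000 UMIs, -0.022. The cause of these shifts was not tested.

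Non-neuronal medians rest on few counts. In DIO the median became 0.03 with TMM factors, 0.102 with at least 500 UMIs (1 gene), 0.041 with the stronger tag, 0.077 with equal cluster weights, 0.358 in nuclei of 3000 to 8000 UMIs (7 genes), 0.157 with no mitochondrial UMI (7 genes) and 0.007 after thinning. In OB it became 0.31 (1 gene), 0.13, 0.097, -0.08, -0.137 and -0.023 with the minimum of 500 UMIs, the stronger tag, equal weights, the depth window, no mitochondrial UMI and thinning.

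Leaving out 1 pool at a time gave 0 to 1 called genes for rapamycin in all, Slc17a6 and GABA neurons, the 1 being Ndufa6 without the chow pool. Without that pool 67 of 17060 genes were called higher and 143 lower in all neurons. The counts were 31 and 92 of 15727 in Slc17a6 neurons and 45 and 118 of 15042 in GABA neurons. Without the pool block 0 of the oxidative phosphorylation genes were called in each. The count between neuron classes (11) was 5 with DESeq2, 31 with library totals alone, 7 in nuclei called directly and 5 to 8 without 1 pool; Atp5g2, Ndufs4 and Sdhaf3 were called in each of these. The spread of cluster levels, highest minus lowest median, was 0.69, and 0.577 in the depth window and 0.558 with no mitochondrial UMI.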
